A study of Homo sapiens with 14 samples.

Results

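The 10 genes described here encode the enzymes that build, lengthen and desaturate fatty acids: ACLY, ACSS2 and ME1, which supply acetyl-CoA and reducing power, ACACA and FASN, which assemble the chain, ELOVL6 and ELOVL5, which lengthen it, and SCD, FADS2 and FADS1, which insert double bonds. They were listed by name with earlier results of these data known, although no measured value enters the rule. All 10 were found among the 54628 gene symbols counted, and all 10 were among the 19126 genes that passed a filter on low counts. RNA was sequenced from IMR90 cells, a line of human lung fibroblasts, in 14 libraries that the labels place in 6 groups. WT (2 libraries) is untreated, siHMGB2 (2 libraries) is untreated with HMGB2 knocked down by siRNA, and ICM (4 libraries) received 10 µM inflachromene for up to 6 days. Inflachromene (ICM) is a small molecule that binds HMGB proteins and was used here to bring the cells into senescence, a lasting arrest of division. The groups siSRRM2, siBANF1 and siCTCF (2 libraries each) carry the same ICM label and are labelled as knockdowns of SRRM2, BANF1 and CTCF. The growth protocol names a pair of IMR90 isolates without saying which library came from which.

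The ICM libraries were used as 2 pairs, because the labels of ICM 3 and 4 have the form of the siCTCF labels and those of ICM 1 and 2 have the form of all others. These pairs are called ICM 1-2 and ICM 3-4, and ICM 3-4 with siCTCF is called the second set. The cell line field of the second set does not read IMR90, although the titles do. No WT library belongs to the second set, so set and treatment cannot be told apart in ICM 3-4 against WT. ICM 1-2 also stood apart from WT in the make-up of its libraries, as given below. Nothing states that the 2 libraries of a group came from separate cultures, so p-values measure the spread between these samples, which may be technical.

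Fatty acid synthesis starts from citrate or acetate. ACLY splits cytosolic citrate and ACSS2 activates acetate, both giving acetyl-CoA. Acetyl-CoA carboxylase (ACACA) turns it into malonyl-CoA, and fatty acid synthase (FASN) extends malonyl units into palmitate with NADPH that malic enzyme (ME1) helps to supply. ELOVL6 lengthens palmitate to stearate, and SCD, the delta-9 desaturase, converts stearate to oleate. FADS2 (delta-6) and FADS1 (delta-5) desaturate polyunsaturated chains, and ELOVL5 lengthens the intermediates between them. Many of these genes are known targets of the sterol regulatory element-binding proteins SREBP1 and SREBP2, factors that are held in the endoplasmic reticulum when sterols are plentiful and released to the nucleus when they are scarce. In dividing fibroblasts the products go mainly into membrane lipids.

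The 3 desaturase promoters are shown because the changes that passed a test include FADS1 and FADS2, which lie head to head on chromosome 11 with overlapping 5′ ends, and because SCD stood on both sides of its controls. The sequences are RefSeq windows on GRCh38.p14, from 250 bases before to 50 bases after an annotated start, written 5′ to 3′ on the gene's own strand. Capitals mark GC boxes (GGGCGG or CCGCCC) and CCAAT boxes (CCAAT or ATTGG). The FADS1 window is chr11:61816954-61817253 on the minus strand, the FADS2 window, of the more downstream of its annotated starts, is chr11:61816154-61816453 on the plus strand, and the SCD window is chr10:100346983-100347282 on the plus strand.
FADS1: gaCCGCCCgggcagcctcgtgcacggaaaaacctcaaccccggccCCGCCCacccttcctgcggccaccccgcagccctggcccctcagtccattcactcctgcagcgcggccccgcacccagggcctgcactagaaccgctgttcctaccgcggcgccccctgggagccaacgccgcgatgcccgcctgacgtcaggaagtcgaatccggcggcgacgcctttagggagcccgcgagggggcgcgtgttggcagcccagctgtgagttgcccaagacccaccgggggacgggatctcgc
FADS2: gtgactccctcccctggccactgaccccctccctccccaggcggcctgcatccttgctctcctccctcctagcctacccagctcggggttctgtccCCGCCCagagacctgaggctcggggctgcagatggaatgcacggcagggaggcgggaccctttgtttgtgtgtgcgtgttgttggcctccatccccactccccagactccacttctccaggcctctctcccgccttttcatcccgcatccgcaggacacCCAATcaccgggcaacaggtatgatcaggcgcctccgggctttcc
SCD: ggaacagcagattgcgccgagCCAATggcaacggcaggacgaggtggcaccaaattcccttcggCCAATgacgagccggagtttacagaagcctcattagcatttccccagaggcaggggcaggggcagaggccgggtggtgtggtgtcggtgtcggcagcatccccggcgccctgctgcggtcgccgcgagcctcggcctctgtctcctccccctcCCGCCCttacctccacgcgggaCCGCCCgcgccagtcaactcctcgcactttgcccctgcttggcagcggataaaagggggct
The FADS1 window held GC boxes at positions -248 and -205 and no CCAAT box. The FADS2 window held 1 GC box at -154 and 1 CCAAT box at 6, and the SCD window held CCAAT boxes at -229 and -186 and GC boxes at -33 and -11. Of 35116 RefSeq windows of the same length, 45.0% held a GC box and 34.6% a CCAAT box. A sterol regulatory element of the letters TCACNCCAC or GTGGNGTGA was found in 1.13% of all windows and in no window of the 9 members that had an entry. The E-box CACGTG was in 7.26% of all windows and, among the members, in that of ELOVL5 at -211. These are matches of letters in 300 bases and were not tested as binding sites.

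Library depth ran from 22336161 to 58257456 gene counts, and levels are given as CPM, the count of a gene divided by all gene counts of its library and scaled to the same total in each. The share of counts in small RNA genes was 0.0129% to 0.0147% in WT, siHMGB2, ICM 3-4 and siCTCF and 3.2% to 6.06% in ICM 1-2, siSRRM2 and siBANF1, which therefore stand apart from WT. The share in mitochondrial mRNA was 2.7% to 3.54% in WT and siHMGB2 and 0.0675% to 0.754% in all ICM-treated libraries. The part of either share in the results was not tested. HMGB2 stood at 27.7 and 28.01 CPM in WT and 3.18 and 3.52 in siHMGB2. CTCF stood at 94.9 and 91.9 in ICM 3-4 and 71.5 and 22.97 in siCTCF. SRRM2 stood at 237.8 and 112.4 CPM in ICM 1-2, 76.05 and 76.4 in siSRRM2 and 58.98 and 17.01 in siBANF1. BANF1 stood at 13.5 and 32.7 CPM in ICM 1-2 and 16.96 and 36.7 in siBANF1, so it was not lower in the libraries labelled with its knockdown. Their deposited files are named with the opposite target, siBANF1 where the label reads siSRRM2 and the reverse, so they are called the libraries labelled siSRRM2 and siBANF1 throughout. All 8 fibroblast markers were above 1 CPM in every library. Their sum was 17740 and 24120 CPM in WT, 11080 and 3937 in ICM 1-2 and 4196 and 2034 in ICM 3-4. Of 5 epithelial markers 3 (EPCAM, KRT19 and CDH1) were under 1 CPM in every library, and the sum, mostly KRT18, was 58.4 and 54.65 CPM in WT, 33.8 and 153.8 in ICM 1-2 and 212.2 and 190.7 in ICM 3-4. Of 5 leukocyte markers 4 were under 1 CPM in every library, PTPRC included, and the sum, nearly all CD68, was 39.3 and 39.45 CPM in WT, 82.9 and 58.4 in ICM 1-2 and 94.95 and 103.9 in ICM 3-4. The part of the fibroblast markers, KRT18 and CD68 in the results below was not tested. The 5 adipocyte markers summed to 0.111 to 5.34 CPM and 3 hepatocyte markers to 0.0418 to 0.325 CPM.

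Per kilobase of exon, ACLY was the most abundant member, with group means from 64.6 to 106.0 CPM per kb. ELOVL5 ranged from 21.8 to 40.2, FADS2 from 11.6 to 44.8, FADS1 from 9.41 to 44.5, ME1 from 13.9 to 41.8 and SCD from 14.9 to 31.6 CPM per kb in group means. FASN ranged from 6.39 to 29.9, ACSS2 from 9.16 to 18.0 and ELOVL6 from 2.09 to 7.42. The ranges of the middle members overlapped, so their order differed between groups. ACACA stood at 0.0948 to 0.326 CPM per kb, which makes the carboxylase gene the least counted member by a wide margin. It held 28 to 260 counts in a library. Of 17 protein-coding neighbours within 600 kb of ACACA (chr17:37084992-37406836), 16 were under 10 CPM in every library, against 15 of 48 around FASN (chr17:82078338-82098236), and the cause was not tested. SCDP1, a pseudogene of SCD, was at most 0.4601 CPM, so few reads were counted to it. On hg38 the other genes lie at chr17:41866917-41930545 (ACLY), chr20:34874989-34927959 (ACSS2), chr10:100347233-100364826 (SCD), chr6:53267404-53348950 (ELOVL5), chr4:110045846-110199202 (ELOVL6) and chr6:83210402-83431051 (ME1).

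**Figure D1:**
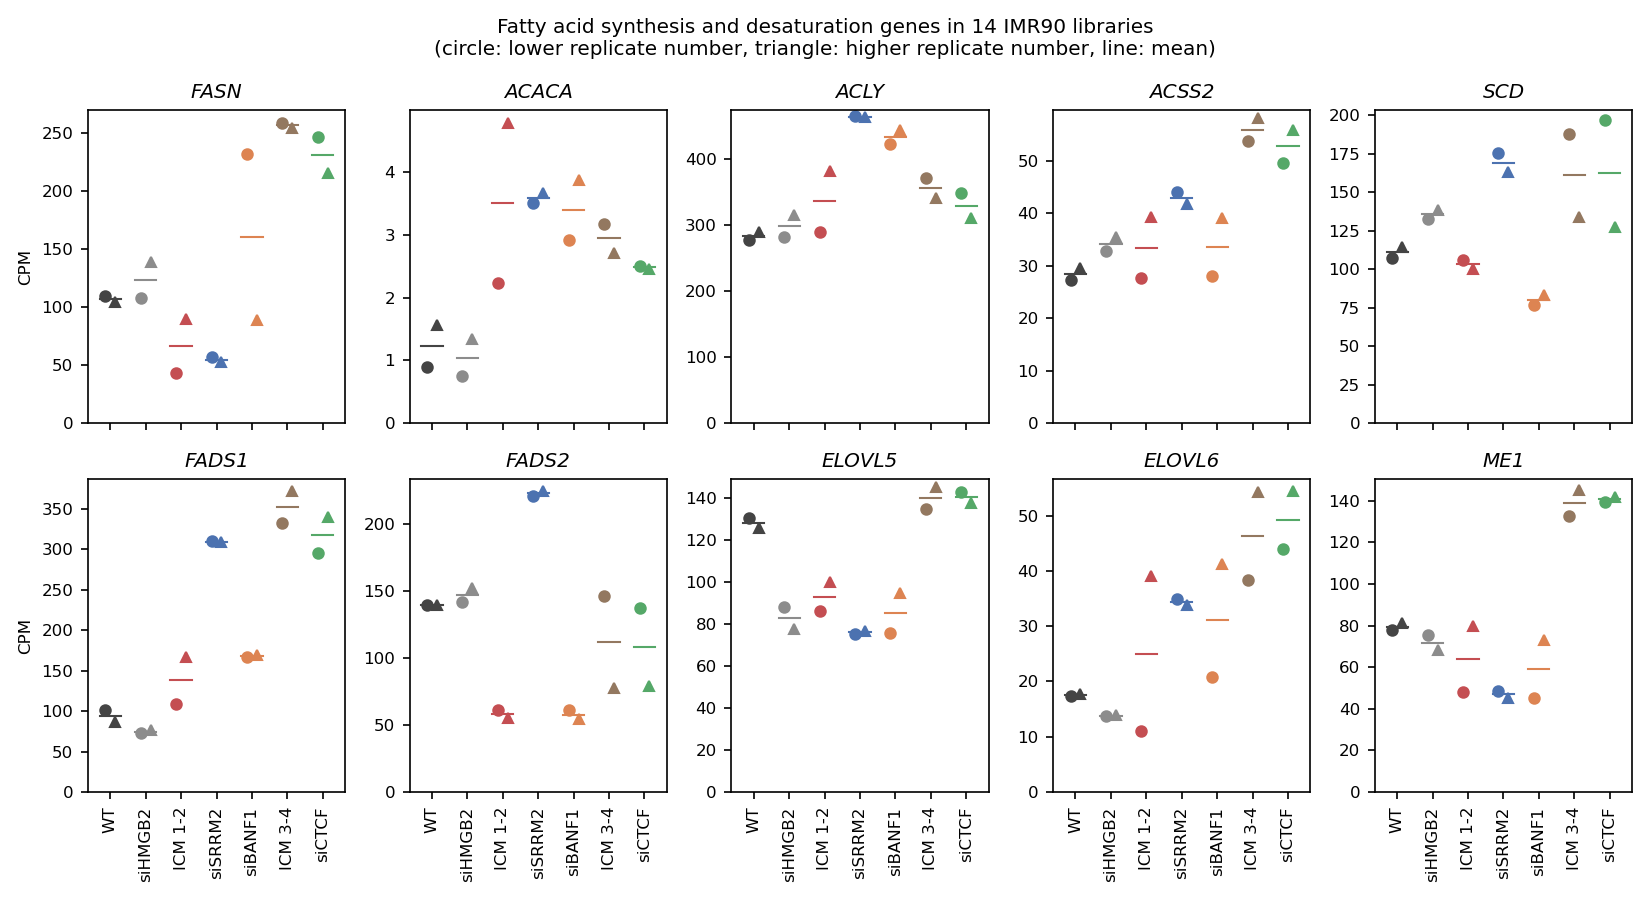
CPM (linear axis from 0) of each of the 10 genes in the 14 libraries, with the lower replicate number of a group as a circle, the higher as a triangle and the group mean as a line. FADS1 stands at 332 and 371 CPM in ICM 3-4 against 86.4 and 101 in WT, while FADS2 is lowest in ICM 1-2 and siBANF1 and highest in siSRRM2.

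Across the 14 libraries FASN spanned 6.01-fold (43.05 CPM in ICM 1 to 259 in ICM 3), FADS1 5.12-fold (72.5 to 371), ELOVL6 4.95-fold (10.98 to 54.4) and FADS2 4.13-fold (54.5 to 225). ME1 spanned 3.22-fold, SCD 2.57-fold, ACSS2 2.13-fold, ELOVL5 1.93-fold and ACLY 1.68-fold. ACACA spanned 6.35-fold on its few counts. The citrate-splitting enzyme thus varied least, and the carboxylase, the synthase and FADS1 most. The sum of the 10 genes ran from 784 CPM in ICM 1 to 1659 CPM in ICM 3.

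In ICM 3-4 against WT, the delta-5 desaturase FADS1 rose 3.18-fold and the acetate-activating enzyme ACSS2 rose 1.66-fold. No member fell. The other 8 genes did not pass the test, an edgeR quasi-likelihood test over all genes with a Benjamini-Hochberg adjusted p under 0.05. So 2 of 10 members were called higher, where 14.3% of all genes tested were called higher, 16% lower and 30.3% in either direction. In counts of genes below, rose and fell mean called higher and called lower by this test. Unadjusted p was under 0.05 for 6 members, against 44% of all genes. The fitted value was positive for 8 of 10 members, with a median log2 fold change of 0.65 beside -0.02 over all genes.

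FADS1 stood at 100.8 and 86.4 CPM in WT and 332.2 and 371.4 in ICM 3-4. Both ICM 3-4 libraries were above both WT libraries. The log2 fold change was 1.67 ± 0.23 (SE from 1 fit to all 14 libraries, 2 libraries a group, edgeR adjusted p = 0.00122). ACSS2 stood at 27.3 and 29.5 CPM in WT and 53.7 and 58.1 in ICM 3-4. These also did not overlap, with a log2 fold change of 0.73 ± 0.21 (edgeR adjusted p = 0.0256). The ACSS2 call was lost when any 1 of WT 1, WT 2, ICM 3 or ICM 4 was left out (edgeR adjusted p = 0.155, 0.125, 0.1 and 0.0979). Without the low-count filter its edgeR adjusted p was 0.18, and in a fit to the 4 libraries compared 5 members were called, FASN, ELOVL6 and ME1 being added.

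A further 4 enzymes had unadjusted p under 0.05 in ICM 3-4 against WT and missed the adjusted threshold. FASN stood at 109.7 and 104.4 CPM in WT and 258.6 and 254.0 in ICM 3-4 (log2 fold change 1.02 ± 0.44, edgeR adjusted p = 0.0998). Malic enzyme ME1 stood at 78.1 and 81.1 in WT and 132.7 and 145.4 in ICM 3-4 (0.56 ± 0.25, edgeR adjusted p = 0.103). ELOVL6 stood at 17.4 and 17.7 in WT and 38.3 and 54.3 in ICM 3-4 (1.15 ± 0.45, edgeR adjusted p = 0.0741). In each of these genes both ICM 3-4 libraries lay above both WT libraries. ACACA stood at 0.894 and 1.56 CPM in WT and 3.18 and 2.72 in ICM 3-4 (1.03 ± 0.46, edgeR adjusted p = 0.108), on counts of 30 and 57 in WT, and the value was 0.68 without WT 1 and 1.47 without WT 2.

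ACLY stood at 276.4 and 289.4 CPM in WT and 371.1 and 340.0 in ICM 3-4. SCD had 107.4 and 114.7 CPM in WT and 187.7 and 134.3 in ICM 3-4. ELOVL5 had 130.4 and 125.6 CPM in WT and 134.8 and 145.3 in ICM 3-4, higher in ICM 3-4 by CPM but with a fitted log2 fold change of -0.11 ± 0.19, because the fit scales by TMM rather than by total counts. FADS2 stood at 139.7 and 139.9 in WT and 146.5 and 77.4 in ICM 3-4, and here the groups overlapped: ICM 3 was above and ICM 4 below both WT libraries. By CPM, 9 of 10 members were higher in both ICM 3-4 libraries than in both WT libraries, against 42.6% of all genes, and 0 were lower in both, against 33.3%. Scaling by total counts moved the median of all genes from -0.02 to 0.18 in ICM 3-4 against WT and from 0.10 to 0.24 in ICM 1-2 against WT. With that scaling the genes called divided into 3448 higher and 2449 lower in ICM 3-4 against WT, beside 2732 and 3064 with TMM. In bulk RNA, fewer cells that make a transcript and less transcript per cell cannot be told apart.

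In ICM 1-2 against WT, the delta-6 desaturase FADS2 fell to 0.383 of its WT level. It was the 1 member of 10 that was called, and no member was called higher. Of all genes tested 13.5% were called, 6.63% higher and 6.86% lower. The fitted value was positive for 5 members and negative for 5, with a median log2 fold change of -0.07 beside 0.10 over all genes. The member median was -0.41 without ICM 2 and 0.01 without ICM 1. Unadjusted p was under 0.05 for 3 members, against 30.6% of all genes.

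FADS2 stood at 139.7 and 139.9 CPM in WT and 61.45 and 55.5 in ICM 1-2. Both treated libraries were below both WT libraries. The log2 fold change was -1.39 ± 0.37 (SE from 1 fit to all 14 libraries, 2 libraries a group, edgeR adjusted p = 0.033). The call was lost without WT 1, WT 2 or ICM 2 (edgeR adjusted p = 0.139, 0.136 and 0.114) and in a fit to the 4 libraries compared (-1.30, edgeR adjusted p = 0.11). ELOVL5, the elongase that works between the front-end desaturases, stood at 130.4 and 125.6 in WT and 86.1 and 99.9 in ICM 1-2 (log2 fold change -0.60 ± 0.19, edgeR adjusted p = 0.06). Both ICM 1-2 libraries were below both WT libraries. ACACA had 0.894 and 1.56 CPM in WT and 2.23 and 4.79 in ICM 1-2 (1.35 ± 0.45, edgeR adjusted p = 0.0719), and the value was 0.77 without ICM 2 and 1.81 without WT 2.

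The remaining members of ICM 1-2 were uneven between its libraries. FASN stood at 43.05 and 89.8 CPM in ICM 1 and ICM 2, beside 109.7 and 104.4 in WT. ME1 stood at 48.1 and 79.6, beside 78.1 and 81.1 in WT, and ELOVL6 at 10.98 and 38.98, beside 17.4 and 17.7 in WT. ACSS2, ELOVL6 and ME1 overlapped between the groups, and FASN did not. ACSS2 stood at 27.6 and 39.2 CPM and ACLY at 289.7 and 381.0 in ICM 1-2. SCD stood at 106.2 and 100.2 and FADS1 at 108.8 and 167.1. By CPM, 3 members (ACACA, ACLY, FADS1) were higher and 4 (FASN, SCD, FADS2, ELOVL5) lower in both libraries than in both WT libraries, against 32.3% and 25% of all genes.

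The ICM pairs were each compared with the same WT libraries, so those comparisons share their controls, and the difference between the pairs was not tested. FASN, SCD and ELOVL5 were below both WT libraries in ICM 1-2 and above both in ICM 3-4 by CPM. Of all genes, 25% were below in ICM 1-2 and 42.6% above in ICM 3-4, and the share that did both was not counted. FASN averaged 66.4 ± 33.0 CPM (SD, n = 2) in ICM 1-2 and 256 ± 3.25 in ICM 3-4. SCD averaged 103 ± 4.29 in ICM 1-2 and 161 ± 37.8 in ICM 3-4. FADS1 was above WT in all 4 ICM libraries, at 108.8 and 167.1 CPM in ICM 1-2 and 332.2 and 371.4 in ICM 3-4. The share of all genes above WT in all 4 was not counted. With all 4 ICM libraries as 1 group, no member was called against WT, and FADS1 had a log2 fold change of 1.17 ± 0.40 (edgeR adjusted p = 0.0848).

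**Figure D2:**
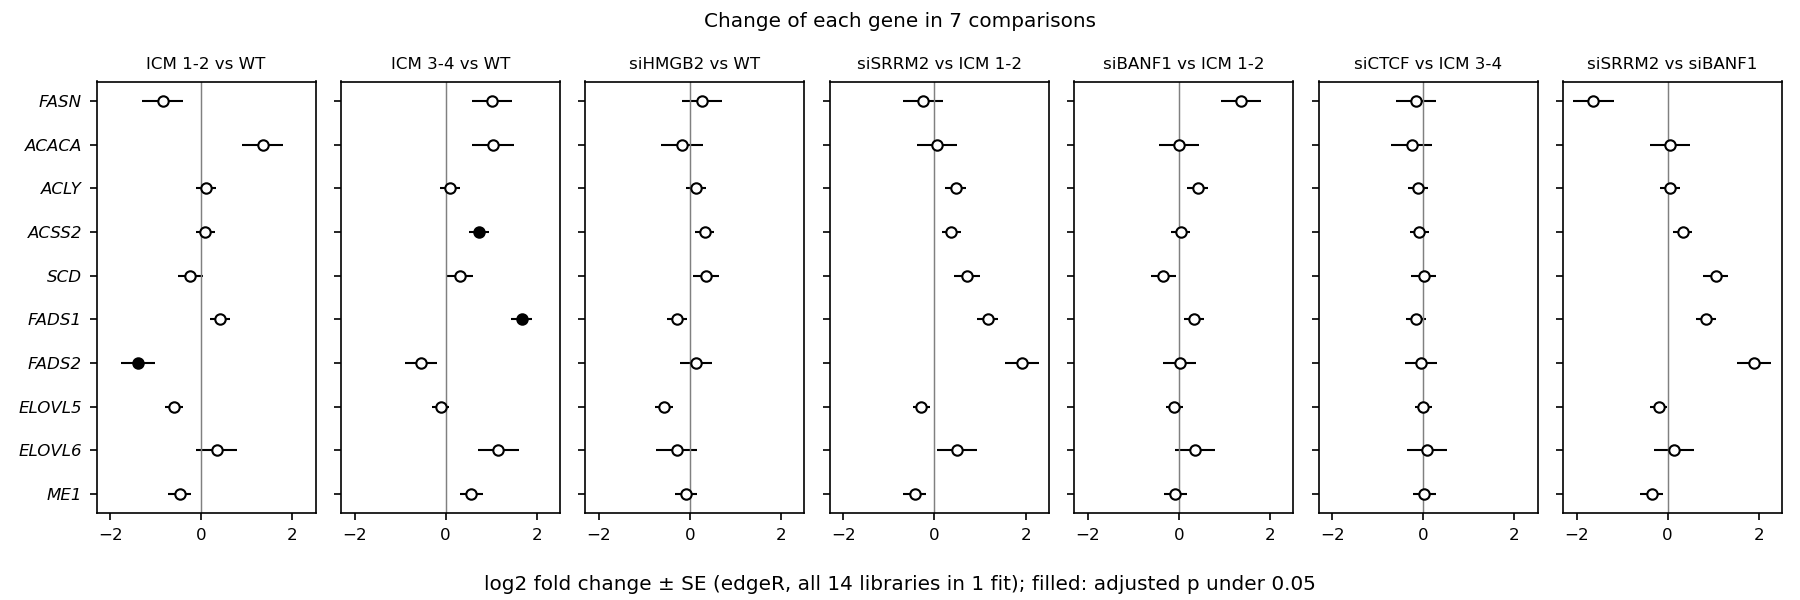
Log2 fold change ± SE of the 10 genes in 7 comparisons, from 1 edgeR fit to the 14 libraries (horizontal axis in log2 units, 2 libraries a group). Filled points passed an adjusted p under 0.05: FADS2 in ICM 1-2 against WT, and ACSS2 and FADS1 in ICM 3-4 against WT.

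In untreated cells with HMGB2 knocked down, the fitted log2 fold changes of the members lay between -0.57 (ELOVL5) and 0.35 (SCD). In siHMGB2 against WT, 0 of 10 members were called by edgeR, where 0% of all genes were called. HMGB2 itself was not called in this fit, with a log2 fold change of -3.00 ± 0.44 (edgeR adjusted p = 0.201). The 0 calls therefore do not show that the members were unchanged. Unadjusted p was under 0.05 for 1 member, against 4.75% of all genes, and DESeq2 called 1 member. That member was ELOVL5, at 130.4 and 125.6 CPM in WT and 88.1 and 77.6 in siHMGB2. Both knockdown libraries were below both WT libraries, with a log2 fold change of -0.57 ± 0.19 (edgeR adjusted p = 0.888). In a fit to the 4 libraries compared, the value was -0.56 ± 0.13 (edgeR adjusted p = 0.0107).

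For the other members the same libraries gave the following levels. FASN stood at 107.8 and 138.9 CPM, ACACA at 0.754 and 1.34 and ACLY at 281.0 and 314.2. SCD stood at 132.9 and 138.7, FADS1 at 72.5 and 76.3 and FADS2 at 141.8 and 152.2. ELOVL6 stood at 13.7 and 13.97, ME1 at 75.6 and 68.1 and ACSS2 at 32.85 and 35.4 CPM. By CPM, 3 members (ACSS2, SCD, FADS2) were higher and 4 (FADS1, ELOVL5, ELOVL6, ME1) lower in both knockdown libraries than in both WT libraries, against 19.7% and 29.3% of all genes. The member median was 0.02 on the log2 scale and that of all genes 0.00, and leaving out 1 library moved the former between -0.01 and 0.19.

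In the libraries labelled siSRRM2, the front-end desaturases FADS2 and FADS1 stood 3.78-fold and 2.25-fold above ICM 1-2, and SCD 1.63-fold, though none passed the adjusted threshold. The synthase FASN did not share this, at 57.2 and 52.3 CPM against 43.05 and 89.8 in ICM 1-2. By edgeR 0 of 10 members were called, where 0.178% of all genes were called, 0.0993% higher and 0.0784% lower. SRRM2 itself was not called (log2 fold change -1.23 ± 0.53, edgeR adjusted p = 0.421). Before adjustment, p was under 0.05 for 3 members, against 11.3% of all genes, and DESeq2 called 2 members, FADS1 and FADS2. The member median was 0.42 beside -0.10 over all genes, with 7 values positive and 3 negative. Without ICM 1 the member median was 0.04, and without ICM 2 it was 0.63.

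FADS2 stood at 220.7 and 224.9 CPM in siSRRM2 and 61.45 and 55.5 in ICM 1-2 (log2 fold change 1.92 ± 0.37, edgeR adjusted p = 0.0828). The siSRRM2 libraries were the highest of all 14 for FADS2 and the WT libraries lay between the groups. FADS1 stood at 309.7 and 308.2 in siSRRM2 and 108.8 and 167.1 in ICM 1-2 (1.17 ± 0.23, edgeR adjusted p = 0.08), with no overlap. SCD stood at 175.6 and 163.0 CPM in siSRRM2 and 106.2 and 100.2 in ICM 1-2 (0.71 ± 0.28, edgeR adjusted p = 0.375), also with no overlap. Without the low-count filter both FADS2 and FADS1 were called (edgeR adjusted p = 2.67e-05 and 0.0459).

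Among the suppliers, ACLY stood at 463.7 and 463.1 CPM in siSRRM2, its highest level in any library, and ACSS2 at 43.95 and 41.8. ME1 stood at 48.7 and 45.2, ELOVL5 at 75.4 and 76.4, ELOVL6 at 35.0 and 33.8 and ACACA at 3.505 and 3.68 CPM. By CPM, 5 members (ACLY, ACSS2, SCD, FADS1, FADS2) were higher and ELOVL5 was lower in both siSRRM2 libraries than in both ICM 1-2 libraries, against 20.5% and 21% of all genes. The siSRRM2 libraries were close to each other, with a median absolute log2 difference of 0.05 over 9 members. This was the smallest within any group, and nothing states that these libraries came from separate cultures.

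In the libraries labelled siBANF1, FASN was the member farthest from ICM 1-2, and it lay above both ICM 1-2 libraries in 1 library only. FASN stood at 231.9 and 88.7 CPM in siBANF1 1 and 2 and at 43.05 and 89.8 in ICM 1 and 2. The groups overlapped, with a log2 fold change of 1.37 ± 0.44 (edgeR adjusted p = 1), and without siBANF1 1 it was 0.40. By edgeR 0 of 10 members were called, where 0% of all genes were called. BANF1 was not called (log2 fold change 0.25 ± 0.39), nor was SRRM2 (-2.16 ± 0.55). Unadjusted p was under 0.05 for 1 member, against 3.09% of all genes, and DESeq2 called 0 members. Without the low-count filter FASN was called (edgeR adjusted p = 0.0395).

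FADS2 overlapped between siBANF1 and ICM 1-2, whereas SCD and FADS1 did not. FADS2 stood at 61.2 and 54.5 CPM, FADS1 at 167.2 and 169.8 and SCD at 76.6 and 83.1. SCD was lower in both siBANF1 libraries than in any other library. ACLY stood at 422.6 and 442.6, ACSS2 at 27.97 and 39.02 and ME1 at 45.3 and 72.9 CPM. ELOVL5 stood at 75.7 and 94.6, ELOVL6 at 20.7 and 41.3 and ACACA at 2.92 and 3.88 CPM, all 3 overlapping with ICM 1-2. By CPM, 2 members (ACLY, FADS1) were higher and SCD was lower in both siBANF1 libraries than in both ICM 1-2 libraries, against 6.24% and 8.22% of all genes.

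The libraries labelled siSRRM2 and siBANF1 were also set directly against each other, without the ICM libraries in the contrast. By CPM, those labelled siSRRM2 had more FADS2, FADS1 and SCD and less FASN, though none passed the adjusted threshold. By edgeR 0 of 10 members were called, where 0.272% of all genes were called, 0.183% higher and 0.0889% lower. Unadjusted p was under 0.05 for 4 members, against 15.5% of all genes, and DESeq2 called those 4, FADS2, FADS1, SCD and FASN. The log2 fold change was 1.90 ± 0.37 for FADS2 (edgeR adjusted p = 0.0602) and 0.84 ± 0.22 for FADS1 (edgeR adjusted p = 0.122). For SCD it was 1.05 ± 0.28 (edgeR adjusted p = 0.125), and for FASN -1.63 ± 0.45 (edgeR adjusted p = 0.131). None of these 4 genes overlapped between the groups. By CPM, 5 members were higher and 1 lower in both siSRRM2 libraries than in both siBANF1 libraries, against 22.8% and 21.3% of all genes. The FASN value was -2.15 without siBANF1 2 (edgeR adjusted p = 0.0058) and -0.66 without siBANF1 1, and FADS2 was called without siBANF1 2 (edgeR adjusted p = 0.0395).

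In ICM-treated cells with CTCF knocked down, the fitted log2 fold changes of the members lay between -0.25 (ACACA) and 0.09 (ELOVL6). In siCTCF against ICM 3-4, 0 of 10 members were called by edgeR and 0 by DESeq2, where 0% of all genes were called. At an unadjusted p under 0.05 there were 0 members, against 0.654% of all genes. The member median was -0.07 (-0.19 without siCTCF 1 and 0.01 without siCTCF 2) and that of all genes -0.01. FASN stood at 246.5 and 215.5 CPM in siCTCF and 258.6 and 254.0 in ICM 3-4, both knockdown libraries being lower. ACACA was likewise lower, at 2.51 and 2.465 in siCTCF and 3.18 and 2.72 in ICM 3-4. These 2 members were lower in both siCTCF libraries, against 9.55% of all genes, and 0 were higher, against 7.52%.

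All other members of siCTCF overlapped with ICM 3-4. FADS1 stood at 294.9 and 340.0 CPM, FADS2 at 137.4 and 78.8 and SCD at 197.3 and 127.4. ACLY stood at 347.9 and 310.2, ACSS2 at 49.65 and 55.9 and ME1 at 139.5 and 142.0. ELOVL5 stood at 142.9 and 137.3 and ELOVL6 at 43.96 and 54.4 CPM. The intervals are wide: the SE of a member's log2 fold change was 0.19 to 0.45 in this comparison. It rests on the spread within all 7 sets of 2 libraries, not on siCTCF and ICM 3-4 alone. A difference of that size could not be told from this pooled spread. CTCF itself was at 71.5 and 22.97 CPM in siCTCF 1 and 2, so its level differed between the libraries. It was not called by edgeR against ICM 3-4 either (log2 fold change -0.96 ± 0.52).

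The ratio of FADS1 to FADS2 within a library, which total depth does not affect, set the untreated libraries apart from all others. It was 0.722 and 0.617 in WT and 0.511 and 0.501 in siHMGB2, so FADS2 had more counts than FADS1 in the 4 untreated libraries. It was 1.77 and 3.01 in ICM 1-2, 2.27 and 4.8 in ICM 3-4, 1.4 and 1.37 in siSRRM2, 2.73 and 3.12 in siBANF1, and 2.15 and 4.32 in siCTCF. Every one of the 10 ICM-treated libraries was above 1 and every untreated library below. FADS1 was above both WT libraries in every ICM-treated library. Of all genes, 32.3% were above both WT libraries in ICM 1-2 and 42.6% in ICM 3-4. The share above WT in all 10 ICM-treated libraries was not counted, nor was the share of gene pairs whose ratio divided the libraries this way. FADS2 was below both WT libraries in ICM 1-2, siBANF1, siCTCF, and ICM 4, and above both in siSRRM2 and ICM 3. FADS1 (chr11:61799627-61817003, minus strand) and FADS2 (chr11:61816203-61867354, plus strand) have RefSeq starts, those of the windows shown above, 599 bases apart and share 142 exon bases on opposite strands, 1.8% of FADS1 and 2.85% of FADS2. Whether strand was used in counting is not given in the sources used here, so reads in that stretch could belong to either gene.

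**Figure D3:**
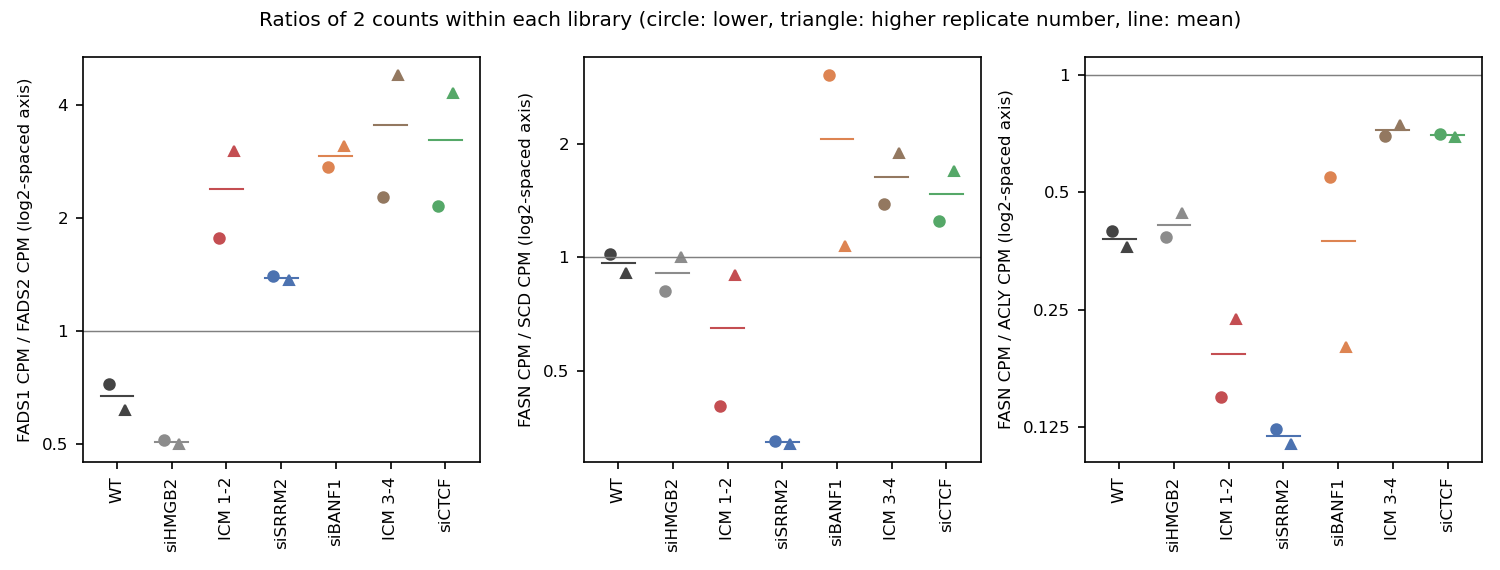
Ratio of CPM of 2 genes within each of the 14 libraries (log2-spaced vertical axes; circle and triangle as the lower and higher replicate number, line as the mean). FADS1 over FADS2 lies between 0.501 and 0.722 in the 4 untreated libraries and between 1.37 and 4.8 in the 10 ICM-treated libraries, while FASN over ACLY is lowest at 0.113 in siSRRM2 2 and highest at 0.747 in ICM 4.

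FASN was set against ACLY, the enzyme that supplies its substrate. FASN over ACLY was 0.397 and 0.361 in WT, 0.149 and 0.236 in ICM 1-2 and 0.123 and 0.113 in siSRRM2. It was 0.697 and 0.747 in ICM 3-4 and 0.708 and 0.695 in siCTCF. The second set was thus above WT, and ICM 1-2 and siSRRM2 below it. In siBANF1 the ratio was 0.549 and 0.2, so its libraries lay on either side of WT. FASN over SCD was 0.326 and 0.321 in siSRRM2 and 3.03 and 1.07 in siBANF1. FASN made up 3.7% of the summed member CPM in siSRRM2 2 and 20.5% in siBANF1 1.

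How far the libraries of a group differed from each other bears on each comparison. Over 9 members (ACACA left out for its low counts), the median absolute log2 difference was 0.07 in WT, 0.11 in siHMGB2, 0.05 in siSRRM2, 0.13 in ICM 3-4 and 0.19 in siCTCF. It was 0.51 in ICM 1-2, where ELOVL6 was 1.83 higher in ICM 2 than in ICM 1 on the log2 scale. It was 0.32 in siBANF1, where the FASN difference was -1.39 from siBANF1 1 to siBANF1 2. Some libraries were closer across groups than within them: the median was 0.08 between ICM 2 and siBANF1 2, 0.09 between ICM 3 and siCTCF 1 and 0.08 between ICM 4 and siCTCF 2. ICM 1 and siBANF1 1 differed by a median of 0.47, with FASN 2.43 higher in siBANF1 1.

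FADS2 showed the within-group split of the second set most clearly. ICM 3 and 4 held 146.5 and 77.4 CPM of FADS2, whereas siCTCF 1 and 2 held 137.4 and 78.8. SCD followed the same order, with 187.7 and 134.3 CPM in ICM 3 and 4 and 197.3 and 127.4 in siCTCF 1 and 2. ELOVL6 had the opposite order, with 38.3 and 54.3 CPM in ICM 3 and 4 and 43.96 and 54.4 in siCTCF 1 and 2.

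Over the 14 libraries, the members did not move as a block. Pearson's r of a member's log2(CPM + 1) with the mean of the other members was 0.91 for ACSS2, 0.86 for ELOVL6 and 0.85 for FADS1. It was 0.57 for ME1, 0.51 for SCD, 0.41 for ELOVL5, 0.40 for FASN and 0.36 for ACACA. It was 0.24 for ACLY and 0.03 for FADS2. These values are descriptions over libraries that share groups, sets and depth. Among 9193 other genes whose mean reached 10 CPM, the patterns most like the members' mean were those of PIAS4 (r = 0.99), UBXN6 (0.98), LRWD1 (0.98), ABCF3 (0.98) and STUB1 (0.97).

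The regulators of these genes include transcription factors, sterol sensors and nuclear receptors, 15 in the list and 14 tested. SREBF1, which encodes the SREBP1 factors that drive lipogenic genes, stood at 52.6 and 52.4 CPM in WT, 30.55 and 29.3 in ICM 1-2 and 14.9 and 13.1 in siSRRM2. It was lowest in siSRRM2, where FADS2 was highest. It stood at 49.45 and 27.4 in siBANF1, 50.95 and 43.6 in ICM 3-4, 49.2 and 42.2 in siCTCF and 44.65 and 50.6 in siHMGB2. SREBF1 had a log2 fold change of -0.94 ± 0.31 in ICM 1-2 against WT (edgeR adjusted p = 0.0669) and -1.11 ± 0.31 in siSRRM2 against ICM 1-2 (edgeR adjusted p = 0.21). SREBF2, which encodes the factor for sterol genes, stood at 114.9 and 114.8 CPM in WT, 68.25 and 34.6 in ICM 1-2 and 99.7 and 94.9 in siSRRM2. Its libraries were far apart in siBANF1, at 124.4 and 31.9 CPM.

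INSIG1, an SREBP target that holds the precursors in the endoplasmic reticulum, stood at 68.9 and 70.4 CPM in siSRRM2 and 12.05 and 23.4 in ICM 1-2 (log2 fold change 1.99 ± 0.37, edgeR adjusted p = 0.0737). NR1H3, the oxysterol receptor LXR alpha, stood at 27.3 and 27.9 CPM in siSRRM2, 5.8 and 6.34 in ICM 1-2 and 3.75 and 7.76 in siBANF1. NR1H3 rose 4.54-fold in siSRRM2 against ICM 1-2 (log2 2.18 ± 0.31, edgeR adjusted p = 0.0405) and was 4.75-fold higher than in siBANF1 (edgeR adjusted p = 0.0284). USF2, which encodes an E-box factor, fell in ICM 1-2 against WT (log2 -0.99 ± 0.22, edgeR adjusted p = 0.0159), from 84.02 and 79.5 to 47.9 and 41.9 CPM. No other regulator of the 14 tested was called in any comparison: SCAP, INSIG2, MBTPS1, MBTPS2, NR1H2, MLXIPL, MLX, USF1 and MID1IP1, beside SREBF1, SREBF2 and INSIG1. MLXIPL was at most 0.302 CPM and THRSP, which was not tested, at most 0.112 CPM in any library.

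**Figure D4:**
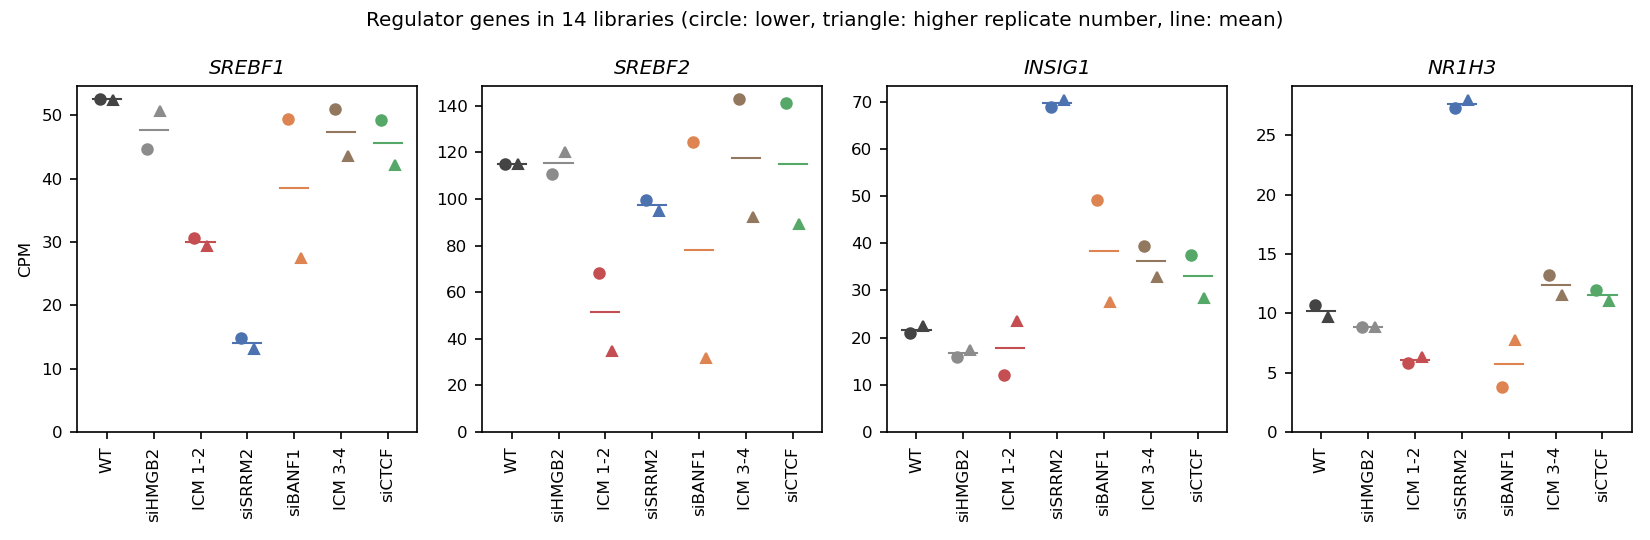
CPM (linear axis from 0) of SREBF1, SREBF2, INSIG1 and NR1H3 in the 14 libraries, with the lower replicate number as a circle, the higher as a triangle and the group mean as a line. In siSRRM2, SREBF1 is at 14.9 and 13.1 CPM, its lowest, and NR1H3 at 27.3 and 27.9 CPM, its highest.

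The neighbouring pathway of cholesterol synthesis, which shares SREBP control with these genes, had higher fitted values in the libraries labelled siSRRM2. All 24 cholesterol genes had a positive log2 fold change in siSRRM2 against ICM 1-2, beside 43.6% of all genes. Of the 10 fatty acid genes, 7 had positive values there and 3 (FASN, ELOVL5 and ME1) negative. The cholesterol median was 1.77, beside 0.42 for the 10 fatty acid genes (0.04 without ICM 1) and -0.10 over all genes. Of the 24 cholesterol genes, 5 rose and 0 fell, where 0.0993% and 0.0784% of all genes did. ACAT2, a thiolase at the start of the route, rose 6.4-fold (edgeR adjusted p = 0.0405), and HMGCS1, which makes HMG-CoA, rose 4.17-fold (edgeR adjusted p = 0.0405). Without siSRRM2 1, and likewise without siSRRM2 2, 1 gene of all 19126 was called in place of 34, so at most 1 of the calls named for this comparison, NR1H3 included, remained. Against siBANF1, 22 of 24 values were positive, beside 44.6% of all genes, with a median of 1.57. In that comparison 7 were called higher and 0 lower, where 0.183% and 0.0889% of all genes were. Leaving out siSRRM2 1, siSRRM2 2 or siBANF1 1 there left 1, 1 and 2 genes called of 52. In ICM 1-2 against WT, 0 of 24 rose and 2 fell, where 6.63% and 6.86% of all genes did, HMGCS1 to 0.5 and FDFT1, squalene synthase, to 0.397 of WT (edgeR adjusted p = 0.0287 and 0.0273). In ICM 3-4 against WT, 1 of 24 rose and 1 fell, where 14.3% and 16% of all genes did. TM7SF2, a sterol reductase, rose 7.44-fold (edgeR adjusted p = 0.0047) and LBR, a sterol reductase of the nuclear envelope, fell to 0.582 (edgeR adjusted p = 0.0334).

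Other elongation and desaturation genes were also read, 14 of 15 listed being tested. In ICM 1-2 against WT, 1 rose and 1 fell, where 6.63% and 6.86% of all genes did: FADS3, a relative of FADS1 and FADS2 in the same gene cluster, rose 1.95-fold (edgeR adjusted p = 0.0137) and TECR, the last reductase of the elongation cycle, fell to 0.448 (edgeR adjusted p = 0.0374). In ICM 3-4 against WT, 1 of 14 rose and 4 fell, where 14.3% and 16% of all genes did. FADS3 rose 1.67-fold (edgeR adjusted p = 0.021), while SCD5, a second delta-9 desaturase, fell to 0.268 (edgeR adjusted p = 0.00985) and HACD1, an elongation dehydratase, to 0.276 (edgeR adjusted p = 0.0318). FADS3 thus rose in both comparisons with WT, which share their controls, at 56.8 and 57.2 CPM in WT, 125.8 and 116.8 in ICM 1-2 and 104.7 and 121.2 in ICM 3-4.

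A further list of 18 genes was read for substrate and NADPH supply, and not all of them provide acetyl groups or reducing power. Their fitted values in ICM 1-2 against WT were positive for 6 and negative for 12, with a median log2 fold change of -0.39. In ICM 3-4 against WT, 1 of 18 rose and 6 fell, where 14.3% and 16% of all genes did. MCAT, a mitochondrial fatty acid synthesis enzyme, rose 2.06-fold (edgeR adjusted p = 0.0444), the mitochondrial dehydrogenase IDH2 fell to 0.0851 (edgeR adjusted p = 0.00592) and pyruvate carboxylase PC fell to 0.0957 (edgeR adjusted p = 0.0218).

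**Figure D5:**
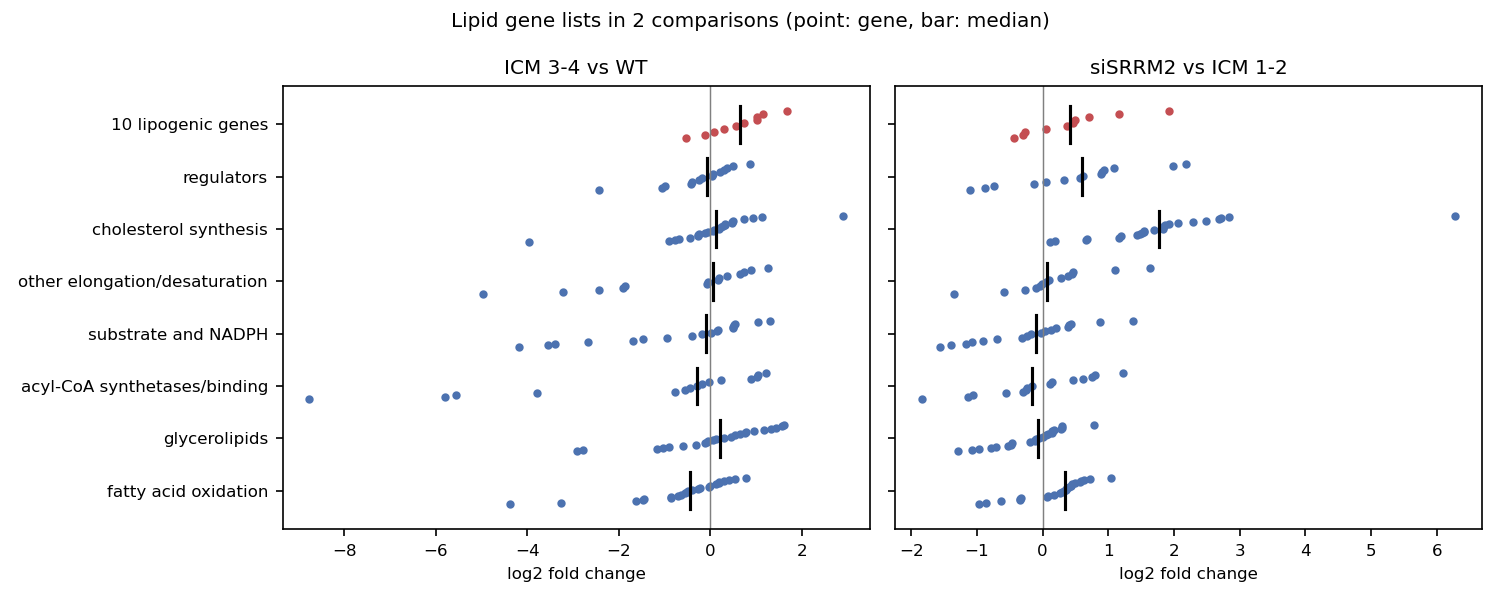
Log2 fold change (horizontal axis, edgeR fit) of each tested gene of 8 lipid gene lists in ICM 3-4 against WT and in siSRRM2 against ICM 1-2, with 1 point a gene and a bar at the list median. The 10 fatty acid genes have medians of 0.65 and 0.42, and the cholesterol synthesis genes 0.14 and 1.77.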

How the data were processed

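RNA-seq libraries (14, in 6 groups) were analysed from the raw counts that the authors deposited (whole numbers, 1 line a gene symbol, 1 table a library); column 3 was used and 5 summary lines that name no gene were left out. These lines held 12.8% to 41.8% of the counts of a library. The submitters' processing notes name STAR 2.7.3a, HTSeq 0.12.4, DESeq2 1.36.0 and hg38; the annotation release and the strand setting are not given in the sources used here. CPM were computed from total gene counts (22336161 to 58257456 a library), a depth at which ACACA rests on as few as 28 counts. The test was edgeR 4.0.16 (R 4.3.3), quasi-likelihood F-test, TMM scaling, filterByExpr (19126 genes), in 1 fit with a mean for each of 7 sets of 2 libraries and 7 residual degrees of freedom, Benjamini-Hochberg adjusted over all genes. The SE is the log2 fold change divided by the root of F, and so rests on the spread within all 7 sets. The script was tested on simulated data. Alternatives were other scalings, no filter, DESeq2 1.42.0, fits to the compared libraries with and without a replicate block, all ICM libraries as 1 group, and each library left out. Figures and sequences used Python 3.11.15, numpy 2.4.6, pandas 2.3.3 and matplotlib 3.10.9. Gene positions and neighbours come from RefSeq, and exon lengths and overlaps from the GENCODE annotation on hg38.

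The members and gene lists were chosen with earlier results of these data known. Named were all 10 members, the knockdown targets, every regulator, from each other list and comparison up to 2 called genes at either end of the log2 fold change (mean of at least 5 CPM), and the 5 genes most like the members' mean profile; some genes that this rule names are not reported here. No library pair of a group agreed within sampling noise, so none was merged. The markers of other cell types summed to 33.8 to 212 CPM (epithelial, 5 genes, 3 of them under 1 CPM in every library), 0.0788 to 9.72 (endothelial, 4 genes) and 39.3 to 103.9 (leukocyte, 5 genes, 4 of them under 1 CPM). Replicate numbers are shared by several groups, but no label ties equal numbers to a shared culture. Over all genes, the median chi-square per gene, which grows with the difference between 2 libraries, was 50.8 within ICM 1-2 and 49.0 within siBANF1. It was 3.18 between ICM 2 and siBANF1 2 and 11.6 between ICM 1 and siBANF1 1. It was 10.1 within ICM 3-4 and 7.73 within siCTCF. Across these groups it was 2.68 (ICM 3, siCTCF 1) and 1.75 (ICM 4, siCTCF 2). Within siHMGB2, WT and siSRRM2 it was 5.57, 3.13 and 1.11. The main fit used no pairs, so such differences count as spread.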

Additional observations from a re-analysis of the deposited data

Results flagged for a closer look

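FASN, SCD and ELOVL5 differed in direction between the ICM pairs by CPM: both ICM 1-2 libraries were below both WT libraries and both ICM 3-4 libraries above them. Of all genes, 25% were lower in both ICM 1-2 libraries and 42.6% higher in both ICM 3-4 libraries. The share of all genes that did both was not counted. FASN averaged 66.41 CPM in ICM 1-2 and 256.3 in ICM 3-4. SCD averaged 103.2 and 161.0 CPM, and ELOVL5 92.99 and 140.0 CPM. Both pairs were set against the same WT libraries, and the difference itself was not tested. For ELOVL5 the direction in ICM 3-4 turns with the scaling, since the TMM-scaled log2 fold change was -0.11.

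SCD also differed in direction between the libraries labelled siSRRM2, which averaged 169.3 CPM and lay above both ICM 1-2 libraries, and those labelled siBANF1, which averaged 79.85 CPM and lay below both. The groups share the ICM 1-2 libraries as controls. Set directly against each other they had a log2 fold change of 1.05 ± 0.28 (edgeR adjusted p = 0.125), which misses the threshold. Of all genes, 20.5% lay above both ICM 1-2 libraries in siSRRM2 and 8.22% below both in siBANF1. The share of all genes that did both was not counted.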

How the results depend on the processing

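With edgeR and TMM, 1 member was called in ICM 1-2 against WT, 2 in ICM 3-4 against WT and 0 in the other 5 comparisons. Of 74 alternative counts, 49 stayed within 1.5 times of these, 14 were larger and 11 smaller, and no single member's direction reversed among those with an unadjusted p under 0.05. With total counts as the scale, siSRRM2 against siBANF1 had 1. Without the filter, siSRRM2 against ICM 1-2 had 2, siBANF1 against ICM 1-2 had 1 and siSRRM2 against siBANF1 had 2. DESeq2 called 3 in ICM 1-2 against WT, 4 in ICM 3-4 against WT, 1 in siHMGB2, 2 in siSRRM2 against ICM 1-2 and 4 in siSRRM2 against siBANF1. Fits to the 4 libraries compared called 0, 5 and 1 in ICM 1-2, ICM 3-4 and siHMGB2 against WT. With all 4 ICM libraries as 1 group, 0 were called against WT. Leaving out 1 library gave 0 to 2 in ICM 1-2 against WT, 1 to 1 in ICM 3-4 against WT, 0 to 2 in siSRRM2 against siBANF1 and 0 elsewhere; the lone library left is taken to vary like the other groups.

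The fit with a replicate block, by the labels' numbers, called 0 members in ICM 1-2 against WT, 1 (ELOVL5) in siHMGB2 and 0 in the comparisons of siSRRM2 and siBANF1, where it changed no call. ICM 3-4 and WT share no number. For siCTCF, whose labels share no number with ICM 3-4, a block by file name was added after seeing the data and called 0. No label pairs the libraries, and with 2 pairs a comparison such a pairing was not tested. Over all genes the block called 1183 in ICM 1-2 against WT, 2443 in siHMGB2, 1 in siBANF1 and 4 in siCTCF.

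Over all genes, calls numbered 2580, 5796, 0, 34, 0, 0 and 52 in the order ICM 1-2, ICM 3-4, siHMGB2, siSRRM2, siBANF1, siCTCF and siSRRM2 against siBANF1. Counts that differed by more than 1.5 times were 3883, 94, 814, 161 and 1361 without the filter (ICM 1-2, siHMGB2, siSRRM2, siBANF1, siSRRM2 against siBANF1) and 4010, 73, 727, 17 and 1333 with DESeq2 in the same order. Fits to the compared libraries gave 0 in ICM 1-2, 1668 in siHMGB2 and 0 in both siSRRM2 comparisons. Total counts gave 1 in siSRRM2 and 79 in siSRRM2 against siBANF1, and 1 ICM group gave 1864 in ICM 3-4. Leaving out 1 library gave 512 to 3482, 1806 to 2471, 1 to 51, 0 to 54 and 1 to 1973 in ICM 1-2, ICM 3-4, siSRRM2, siBANF1 and siSRRM2 against siBANF1. The causes of these differences were not tested. Among the members, depth limits ACACA most.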

Other observations

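Of 24 glycerolipid genes tested, which store and release fatty acids, 3 rose and 2 fell in ICM 1-2 against WT, with a median log2 fold change of 0.19. Over all genes 6.63% rose and 6.86% fell in that comparison, and 14.3% rose and 16% fell in ICM 3-4 against WT, which shares its WT libraries. PLIN2, a coat protein of lipid droplets, rose 3.22-fold, from 88.6 to 310.4 CPM (edgeR adjusted p = 0.00483), and MGLL, a monoglyceride lipase, rose 3.2-fold (edgeR adjusted p = 0.0462). AGPAT1, an acyltransferase of phosphatidic acid synthesis, fell to 0.273 of WT (edgeR adjusted p = 0.00807) and PNPLA2, the adipose triglyceride lipase, fell to 0.434 (edgeR adjusted p = 0.0257). In ICM 3-4 against WT, 4 of 24 rose and 2 fell, a share called below the 30.3% of all genes, with a median of 0.22. There PNPLA2 rose 2.96-fold (edgeR adjusted p = 0.00499) and LPIN1, a phosphatidate phosphatase, rose 3.06-fold (edgeR adjusted p = 0.0247), while AGPAT4 fell to 0.146 (edgeR adjusted p = 0.00673).

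Of 15 acyl-CoA synthetase and binding genes tested, 0 were called in ICM 1-2 against WT by edgeR (median -0.60), and 2 rose and 4 fell in ICM 3-4 against WT (median -0.29), where 30.3% of all genes were called in either direction. The acyl-CoA synthetase ACSL1 rose 2.31-fold (edgeR adjusted p = 0.0185) and the transporter SLC27A4 rose 2.04-fold (edgeR adjusted p = 0.0189). The synthetase of arachidonate, ACSL4, fell to 0.073 of WT (edgeR adjusted p = 0.0127) and the fatty acid receptor CD36 to 0.0213 (edgeR adjusted p = 0.00669). Of 24 oxidation genes, 2 rose and 4 fell in ICM 1-2 against WT (median -0.15), beside 6.63% and 6.86% of all genes. In ICM 3-4 against WT, 1 rose and 7 fell (median -0.43), beside 14.3% and 16%. ETFDH, which passes electrons from oxidation to the respiratory chain, rose 1.81-fold in ICM 1-2 (edgeR adjusted p = 0.0302), where the thiolase ACAA1 fell to 0.486 (edgeR adjusted p = 0.0176). PPARGC1A, a coactivator of mitochondrial genes, fell to 0.0916 in ICM 1-2 (edgeR adjusted p = 0.0243) and to 0.105 in ICM 3-4 (edgeR adjusted p = 0.0171), and PDK4, a brake on pyruvate dehydrogenase, fell to 0.0477 in ICM 3-4 (edgeR adjusted p = 0.0166). The share of mitochondrial mRNA, which was lower in all ICM-treated libraries, was not tested as a part of these values.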
